A study of Homo sapiens with 2 samples.

Results

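Fibrinolysis, the enzymatic dissolution of fibrin, was examined in human umbilical vein endothelial cells (HUVECs) through 6 genes taken by symbol from the 36601 genes of the files: PLAT, PLAU, PLAUR, SERPINE2, ANXA2 and S100A10. The symbols were listed by name and not by any measured value, and each was present once in both count matrices. The cells had been grown for about 48 hours to a confluent layer inside microfluidic devices with 50 µm channels and were then perfused with red blood cells for 4 hours. In the 5% pdRBC group the perfusate was a mixture in which 5% of the red cells were pharmacologically dehydrated (pdRBCs) and the others were healthy red blood cells (hRBCs). The pdRBCs were made from hRBCs with nystatin, which opens the membrane to cations, and washes in concentrated sucrose, which brought the mean corpuscular hemoglobin concentration to 40 to 42 g/dL as a model of the stiff red cells of sickle cell disease. In the hRBC group only healthy red cells were perfused. Both groups shared the device, the medium and the flow, and each is 1 droplet library of 5′ transcript ends (10x Genomics), with no donor, device or culture number given. The comparison asks how endothelial transcripts differ when a small share of stiff red cells passes over them.

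Fibrinolysis turns on plasmin, a protease cut from plasminogen by tissue plasminogen activator (PLAT) or by urokinase (PLAU). The urokinase receptor (PLAUR) holds urokinase at the cell surface, serpins such as protease nexin-1 (SERPINE2) trap the activators, and a surface complex of annexin A2 (ANXA2) with S100A10 binds tissue plasminogen activator and plasminogen side by side. Endothelium is the main vascular source of tissue plasminogen activator, which it stores and releases into blood, and it makes urokinase and its receptor when it migrates or is inflamed.

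Promoter sequence was taken from RefSeq (GRCh38.p14), which held a window for 5 of the 6 genes, over the 250 bases before each start site. It is shown for genes that differ in the motifs they hold. ANXA2 and PLAUR each contain 1 AP-1 site, the element bound by FOS, JUN and related factors. The windows of SERPINE2, PLAU and S100A10 contain none. The letters searched, on both strands, were TGANTCA for the AP-1 site, GGGCGG for the GC box, GCGNGGGCG for the EGR site, CACGTG for the E-box, CCAAT for the CCAAT box, TATAAA for the TATA box and TGACGTCA for the cAMP response element, and the NF-kB site was searched as well. The ANXA2 stretch below lies on the minus strand at chr15:60398044-60398236 and ends where annotated UTR begins. Capitals mark the AP-1 site, 127 bases before the start, and a row of 3 overlapping GC boxes.
ANXA2: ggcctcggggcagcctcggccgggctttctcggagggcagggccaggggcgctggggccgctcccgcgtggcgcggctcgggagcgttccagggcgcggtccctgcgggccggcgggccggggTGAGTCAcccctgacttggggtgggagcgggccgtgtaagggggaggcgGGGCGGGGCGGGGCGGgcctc
PLAUR is shown by short stretches around its AP-1 site at chr19:43670339-43670365 and its EGR site at chr19:43670241-43670269, both on the minus strand and 186 and 90 bases before the start. They lie in sequence that GENCODE release 29 annotates as UTR of other PLAUR transcripts.
PLAUR AP-1 site: cacaactccaTGAGTCAgggccgagcc
PLAUR EGR site: gagggggaggCGCCCACGCatctggggct
A SERPINE2 window at chr2:224031479-224031728, on the minus strand, is shown in contrast, with capitals on its 7 CCAAT boxes in either orientation, an E-box and a GC box.
SERPINE2: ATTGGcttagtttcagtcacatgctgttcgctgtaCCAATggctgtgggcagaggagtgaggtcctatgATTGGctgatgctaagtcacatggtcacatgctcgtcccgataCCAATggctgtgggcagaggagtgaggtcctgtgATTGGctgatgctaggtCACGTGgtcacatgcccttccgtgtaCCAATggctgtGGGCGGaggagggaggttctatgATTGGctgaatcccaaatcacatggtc
Of 35116 windows of this length, 6.57% hold an AP-1 site, 8.42% an EGR site, 6.35% an E-box, 32.0% a CCAAT box, 42.6% a GC box, 10.7% a TATA box, 1.65% a cAMP response element and 1.73% an NF-kB site. None of the members' windows held a cAMP response element or an NF-kB site. ANXA2 also had a TATA box 31 bases before its start, within the 57 bases of its window that are annotated as UTR. S100A10 had 1 GC box, and PLAU had a CCAAT box before one start and 3 GC boxes before another. All 250 bases of the S100A10 window and of each PLAU window were annotated as UTR. The window before another SERPINE2 start, at chr2:224038641-224038890, held 2 GC boxes and none of the other motifs, so no CCAAT box. Of its 250 bases, 164 were annotated as UTR. A match is a string of letters and not a measured binding site.

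The libraries differed in depth. After barcodes with fewer than 1000 unique molecular identifiers (UMIs), fewer than 500 genes or over 20% mitochondrial UMIs were left out, 1601 of 1635 barcodes remained in the 5% pdRBC library and 2555 of 3858 in the hRBC library, with a median of 9566 and 2175 UMIs per cell and 16127985 and 13335148 UMIs in all. Among kept barcodes, 6 were found in both libraries. Each of 12 endothelial markers was measured, and markers that define blood cells were at or near 0: PTPRC had 6 UMIs in 5% pdRBC and 2 in hRBC, HBB had 0 and 12, and COL1A1 of fibroblasts had 0 and 2. Summed over whole marker lists, erythroid genes had 4 UMIs in 5% pdRBC and 15 in hRBC, neutrophil genes 6 and 0, lymphocyte genes 5 and 0, platelet genes 27 and 13, epithelial genes 73 and 130, and lymphatic genes 219 and 138. Monocyte markers summed to 33.0 and 33.5 CPM, of which CD68 gave 32.1 and 32.5 CPM, and fibroblast and mural markers to 347.3 and 393.5 CPM, of which RGS5 gave 328.3 and 368.8 CPM. Of 11 cycling markers, 8 were at least 1.5-fold lower in 5% pdRBC, with a summed level of 138 CPM (UMI counts with each library brought to 1 shared total) against 207 CPM in hRBC. The part of depth and of cycling cells in the results below was not tested beyond the values given beside them.

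With all UMIs of the kept cells, both plasminogen activator genes were lower in cells perfused with 5% pdRBC, and they were the members with the largest differences. PLAT, the secreted tissue activator, had 229 UMIs in the 5% pdRBC library and 280 in the hRBC library, which is 14.2 CPM (95% Poisson interval 12.4 to 16.2) and 21.0 CPM (18.6 to 23.6). The intervals of the 2 libraries did not meet, and the PLAT level was 1.48-fold lower (1.24 to 1.77) in 5% pdRBC. PLAU, which encodes urokinase on chr10:73909177-73917497, had 150 UMIs, or 9.30 CPM (7.87 to 10.9), in 5% pdRBC and 214 UMIs, or 16.05 CPM (14.0 to 18.4), in hRBC. It was 1.72-fold lower (1.39 to 2.14), and 0.444% of all measured genes had a more negative fold, against 1.19% for PLAT. With each cell thinned to 2000 UMIs PLAT was 1.83-fold lower (1.20 to 2.85) and PLAU 1.52-fold lower with an interval of 0.961 to 2.43, which includes 1. Thinned to 1000 UMIs, which leaves out no kept cell, PLAT was not lower. It averaged 0.01999 UMIs per cell in 5% pdRBC and 0.01918 in hRBC, and PLAU averaged 0.01124 and 0.01605. Fold intervals are exact Clopper-Pearson intervals of the split of a gene's UMIs between the libraries. They cover counting error only, and with 1 library per group no difference has a replicate check and no p-value was computed.

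PLAUR, the receptor that anchors urokinase to the membrane, differed less with all UMIs. It had 1011 UMIs and 62.7 CPM (58.9 to 66.7) in 5% pdRBC and 935 UMIs and 70.1 CPM (65.7 to 74.8) in hRBC, a 1.12-fold lower level (1.02 to 1.22) in 5% pdRBC. The PLAUR interval included 1 in 4 of the alternatives that have one: without cycling cells (0.970 to 1.18), without the chemokine-led cluster described below (0.985 to 1.18), in cells of 5000 or more UMIs (0.965 to 1.18), and without the 5% of cells with the most UMIs (0.9994 to 1.22). With each cell thinned to 2000 UMIs it went further from 1, to 1.52-fold lower (1.23 to 1.87), and PLAUR was then the 1 member past 1.5-fold, with PLAT and PLAU under the minimum of 100 UMIs. For each PLAUR UMI there were 0.148 PLAU UMIs in 5% pdRBC and 0.229 in hRBC. SERPINE2, the serpin that blocks urokinase, thrombin and plasmin, had 1757 UMIs and 108.9 CPM (103.9 to 114.2) in 5% pdRBC and 1548 UMIs and 116.1 CPM (110.4 to 122) in hRBC. Its fold interval included 1, at 1.07-fold lower (0.995 to 1.14), and left out 1 in 4 of 10 alternatives that have an interval. The number of SERPINE2 UMIs per PLAU UMI was 11.7 in 5% pdRBC and 7.23 in hRBC.

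The pair that forms the plasminogen-docking complex was lower by small amounts. ANXA2, the calcium-dependent phospholipid-binding subunit, had 27715 UMIs and 1718 CPM (1698 to 1739) in 5% pdRBC and 26311 UMIs and 1973 CPM (1949 to 1997) in hRBC, 1.15-fold lower (1.13 to 1.17). S100A10, the small partner whose tail binds plasminogen, had 27572 UMIs and 1710 CPM (1689 to 1730) in 5% pdRBC and 24879 UMIs and 1866 CPM (1843 to 1889) in hRBC, 1.09-fold lower (1.07 to 1.11). There were 0.995 S100A10 UMIs per ANXA2 UMI in 5% pdRBC and 0.946 in hRBC. ANXA2 lies on chr15:60347134-60402883 and S100A10 on chr1:151982915-151994390 (GRCh38, GENCODE release 29).

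**Figure D1:**
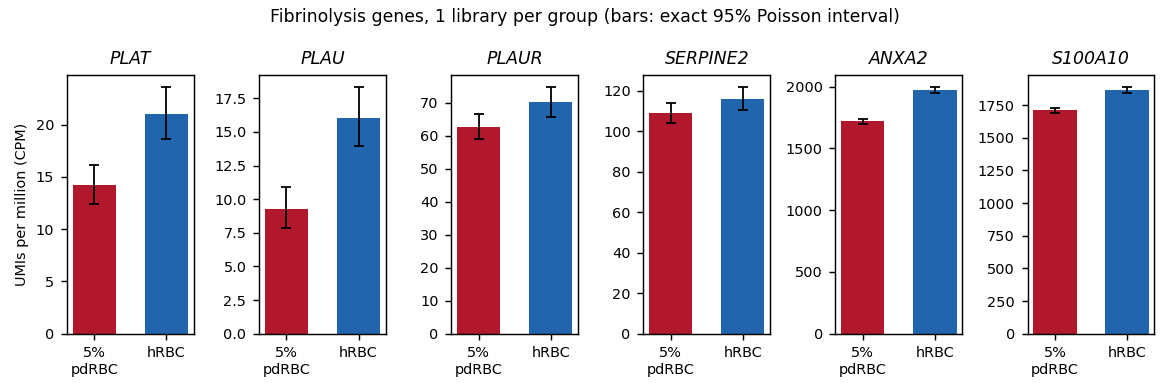
Level of each of the 6 fibrinolysis genes in CPM, with one bar for the 5% pdRBC library and one for the hRBC library and exact 95% Poisson intervals for counting error. PLAU, at 9.30 CPM in 5% pdRBC and 16.05 CPM in hRBC, and PLAT stand furthest apart for their level, and the intervals of PLAUR and of SERPINE2 overlap.

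At a threshold of 1.5-fold with an interval leaving out 1, 0 of the 6 genes were higher in 5% pdRBC and 1, PLAU, was lower. Over the 11043 genes measured with 100 or more UMIs, 1.55% were higher and 1.09% lower by this rule. With no threshold on size, 0 of 6 were higher and 5 of 6 lower with an interval leaving out 1, where 15.4% and 12.2% of measured genes were. The rule without a size depends on counts, and ANXA2 and S100A10, with 54026 and 52451 UMIs over both libraries, have narrow intervals. The median log2 fold of the 6 genes was -0.18, and that of all measured genes was 0.02.

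The share of cells in which a transcript was seen follows depth, so each cell was thinned to 2000 UMIs, which left 1557 cells of the 5% pdRBC library and 1375 of the hRBC library, with 44 and 1180 shallower cells left out. PLAUR was then seen in 9.76% of cells (exact binomial interval 8.33 to 11.4%) in 5% pdRBC and 14.8% (13 to 16.8%) in hRBC, against 36.2% and 24.6% before thinning, when the order was the other way round. ANXA2 was seen in 88.8% (87.2 to 90.4%) and 94.98% (93.7 to 96.1%) of thinned cells, and S100A10 in 90.5% (88.9 to 91.9%) and 94.98% (93.7 to 96.1%). The intervals of these 3 genes did not overlap between the libraries at this depth. For PLAUR they overlapped at 1000 UMIs per cell, at 4.21 to 6.46% in 5% pdRBC and 5.79 to 7.77% in hRBC. They also overlapped at 5000 UMIs, at 20.9 to 25.5% and 24.7 to 31.1%. Those of ANXA2 and S100A10 stayed apart at 1000 UMIs and overlapped at 5000 UMIs. SERPINE2 was seen in 18.3% (16.4 to 20.3%) of thinned 5% pdRBC cells and 17.9% (15.9 to 20.02%) of hRBC cells, and the intervals lay over each other. PLAT was seen in 2.38% (1.68 to 3.26%) and 3.85% (2.90 to 5.01%) and PLAU in 2.06% (1.41 to 2.89%) and 3.35% (2.46 to 4.44%), with overlapping intervals. Unthinned, PLAT had a UMI in 11.6% of 5% pdRBC and 7.40% of hRBC cells, PLAU in 7.75% and 7.08%, SERPINE2 in 50.7% and 31.2%, ANXA2 in 98.8% and 93.4%, and S100A10 in 97.1% and 92.7%. No cell type that should lack these genes was present to set a background from free RNA. The leukocyte gene PTPRC, which endothelium should lack, was seen in 0.128% of thinned 5% pdRBC cells and 0 of 1375 thinned hRBC cells. That 0 allows up to 0.268% of cells with a UMI at this depth by the exact interval and sets no limit on cells expressing the gene, which had 2 UMIs in the unthinned hRBC cells.

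Relative to their means, ANXA2 and S100A10 varied more between cells of the 5% pdRBC library. At 2000 UMIs per cell ANXA2 averaged 3.13 UMIs in 5% pdRBC and 4.10 in hRBC, with a variance of 7.67 and 8.67 and a variance over mean of 2.45 and 2.12. S100A10 averaged 3.26 and 3.58 UMIs, with a variance over mean of 2.04 in 5% pdRBC and 1.51 in hRBC. Over cells within a library, Pearson's r between the subunits was 0.178 in 5% pdRBC and 0.155 in hRBC. The next highest value was 0.102, for PLAUR and ANXA2 in hRBC, and at this depth such values are weak. Both transcripts were seen together in 1254 of 1557 cells in 5% pdRBC and 1240 of 1375 in hRBC, where the product of their shares gives 1252 and 1240.

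**Figure D2:**
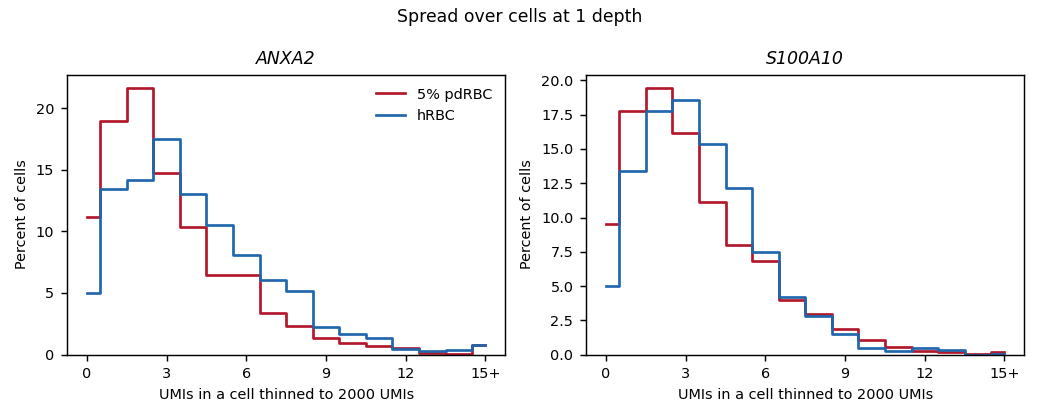
Percent of cells (vertical axis) by the number of UMIs of ANXA2 (left) and S100A10 (right) in a cell thinned to 2000 UMIs, for 1557 cells of 5% pdRBC and 1375 of hRBC. The 5% pdRBC curves sit further left, with more cells at 0 to 2 UMIs, and the ANXA2 mean is 3.13 in 5% pdRBC against 4.10 in hRBC.

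Cells were then grouped by depth. PLAT and PLAU were lower in the deepest cells with intervals leaving out 1, which they did not in the shallower bins, and PLAUR, ANXA2 and S100A10 were lower by larger folds in shallower cells. Among the deepest cells, those with 10000 or more UMIs, which numbered 726 in 5% pdRBC and 538 in hRBC, PLAT had 14.2 CPM in 5% pdRBC and 23.5 CPM in hRBC, 1.66-fold lower. PLAU had 10.04 CPM and 15.8 CPM there, 1.57-fold lower. Both fold intervals left out 1, and at 1.25-fold these were the 2 members lower in that bin, where 4.08% of genes were. PLAT had 14.05 CPM in 5% pdRBC and 19.2 CPM in hRBC in cells of at least 5000 but under 10000 UMIs, a ratio of 0.725 (0.479 to 1.13), and 15.4 and 15.3 CPM in cells of at least 2000 but under 5000 UMIs, a ratio of 1.04 (0.435 to 2.15). In the cells of 1000 to under 2000 UMIs its ratio was 1.32 (0.0218 to 5.42), from 1 UMI in 5% pdRBC. PLAU had ratios of 0.675 (0.394 to 1.22) and 0.475 (0.133 to 1.14) in the bins from 5000 and from 2000 UMIs. PLAUR in the deepest cells had 72.4 CPM in 5% pdRBC and 69.1 CPM in hRBC, a ratio of 1.05 (0.938 to 1.17), and its lower level lay in the shallower cells. In cells of at least 5000 but under 10000 UMIs PLAUR had 45.9 CPM in 5% pdRBC and 62.25 CPM in hRBC, 1.36-fold lower, the 1 member lower by the 1.25-fold rule where 3.84% of genes were. In cells of at least 2000 but under 5000 UMIs it had 43.2 CPM and 75.4 CPM, 1.72-fold lower, and ANXA2 and S100A10 joined it as 3 members lower where 13.6% of genes were. S100A10 had 1268 CPM in 5% pdRBC and 1699 CPM in hRBC in that bin, 1.34-fold lower, but was only 1.07-fold lower in the deepest cells. ANXA2 was 1.32-fold lower in that bin and 1.05-fold lower in the deepest cells. SERPINE2 had an interval including 1 in each of the 4 bins. In the lowest bin, with 44 cells in 5% pdRBC and 1180 in hRBC, ANXA2 and S100A10 were the 2 members lower, where 13.6% of genes were.

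**Figure D3:**
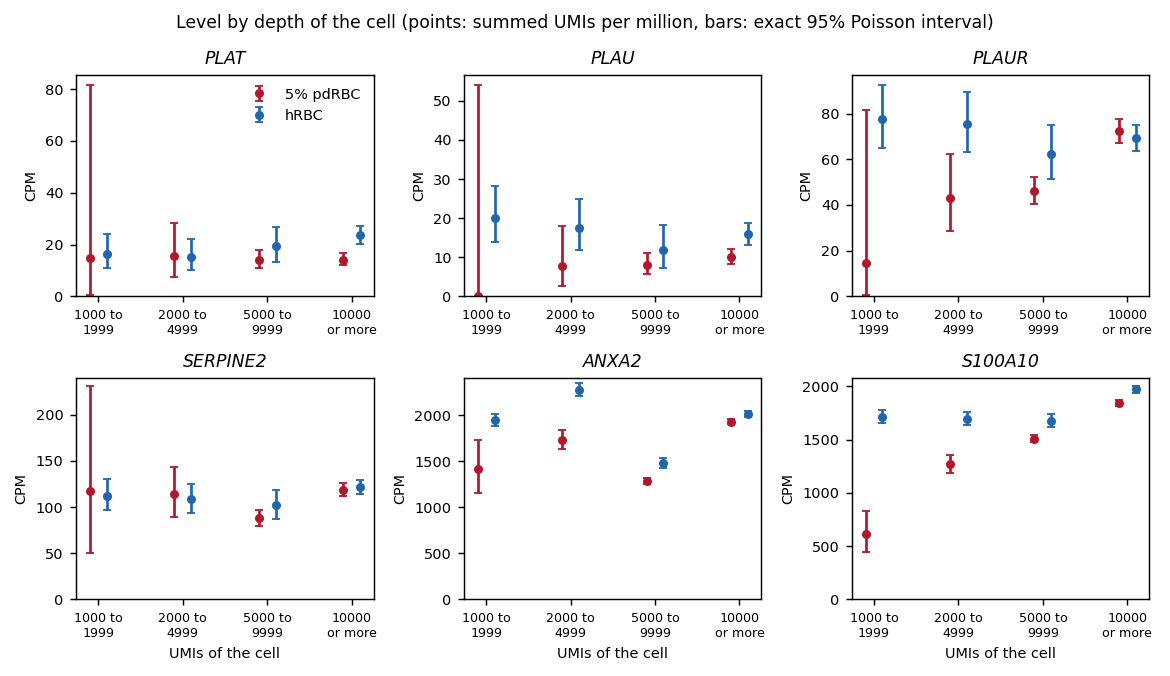
Level in CPM (vertical axis) of each gene by the UMIs of the cell (horizontal axis), with exact 95% Poisson intervals, for 5% pdRBC beside hRBC. The intervals of PLAT and of PLAU are apart in the deepest cells, and PLAUR, at 72.4 CPM in 5% pdRBC and 69.1 CPM in hRBC there, lies lower in 5% pdRBC in the shallower bins.

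Cells of both libraries were clustered together on variable genes from which the 6 members had been removed, giving 8 clusters, of which 6 had 20 or more cells in each library and are compared. Cluster 0 (508 cells in 5% pdRBC and 301 in hRBC) was led by the immediate early genes EGR1, FOSB, KLF4 and ATF3, and cluster 1 (83 and 1140 cells) by AL138963.4 and BEST1. Cluster 2 (524 and 313 cells) was led by LDB2 and MAGI1, cluster 3 (173 and 409 cells) by MKI67 and other cycling genes, cluster 4 (221 and 227 cells) by MGP and FABP4, and cluster 6 (56 and 44 cells) by MECOM and FAM155A. Within a cluster the libraries still differed in depth: median UMIs were 10827 in 5% pdRBC and 11175 in hRBC in cluster 0, 6719 and 1520 in cluster 1, 8684 and 9965 in cluster 2, 10306 and 2194 in cluster 3, and 11005 and 4136 in cluster 4.

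In the EGR1 and FOSB cluster the receptor, the inhibitor and the annexin complex genes were higher in 5% pdRBC, and both activator genes were lower. SERPINE2 had 141.4 CPM in 5% pdRBC and 109.5 CPM in hRBC, 1.29-fold (1.14 to 1.46). PLAUR had 94.5 CPM in 5% pdRBC and 78.3 CPM in hRBC, 1.21-fold (1.04 to 1.40). ANXA2 had 1875 CPM and 1679 CPM, 1.12-fold (1.08 to 1.15), and S100A10 had 2255 CPM and 2103 CPM, 1.07-fold (1.04 to 1.10). SERPINE2 was thus the 1 member higher by 1.25-fold with an interval leaving out 1, where 8.7% of genes were. PLAT had 18.2 CPM in 5% pdRBC and 34.1 CPM in hRBC, 1.87-fold lower, and PLAU had 8.69 CPM and 13.8 CPM, 1.59-fold lower. PLAT was the 1 member lower by that rule, where 7.14% of genes were. PLAU, with 51 UMIs in 5% pdRBC and 48 in hRBC, was under the minimum of 100 UMIs in this cluster. Its ratio had an interval of 0.417 to 0.957, which left out 1. With finer clusters, in the cluster led by the same genes, SERPINE2 was 1.49-fold (1.24 to 1.80) and ANXA2 1.11-fold (1.06 to 1.16) higher, and the intervals of PLAUR at 1.17-fold (0.960 to 1.43) and S100A10 at 1.02-fold (0.983 to 1.06) included 1. In that finer cluster PLAT was 2.87-fold lower, at 18.8 CPM in 5% pdRBC and 53.9 CPM in hRBC. PLAU had 11.2 CPM and 14.3 CPM there, and the interval of its ratio, 0.776 (0.463 to 1.37), included 1.

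In the LDB2 and MAGI1 cluster the same 4 genes were lower in 5% pdRBC, where 6.29% of genes were lower by 1.25-fold. ANXA2 had 1074 CPM in 5% pdRBC and 1618 CPM in hRBC, 1.51-fold lower, and SERPINE2 had 83.5 CPM and 125.9 CPM, also 1.51-fold lower. PLAUR had 29.01 CPM in 5% pdRBC and 40.4 CPM in hRBC, 1.39-fold lower, and S100A10 had 1040 CPM and 1422 CPM, 1.37-fold lower. PLAT and PLAU stood at 10.8 and 9.95 CPM in 5% pdRBC and 12.1 and 11.8 CPM in hRBC in this cluster, with fold intervals including 1. Among cycling cells ANXA2 was 1.36-fold and PLAUR 1.44-fold lower, 2 members where 5.6% of genes were lower by 1.25-fold. In the MGP and FABP4 cluster SERPINE2, with 130.3 CPM in 5% pdRBC and 193.6 CPM in hRBC, was 1.49-fold lower, 1 member where 5.11% of genes were. With the members among the variable genes, SERPINE2 in the MGP and FABP4 cluster was no longer lower by that rule, with a ratio of 0.847 (0.717 to 1.001). With finer clusters the outcome differed by cluster. SERPINE2 had a ratio of 0.843 (0.711 to 0.999) in the cluster led by MGP and TUBA1A, not lower by that rule. In the cluster led by ACE and FABP4, with MGP also among its leading genes, it was lower by that rule, at 0.641 (0.522 to 0.790). Depth was unequal in cluster 1, with median UMIs of 6719 in 5% pdRBC and 1520 in hRBC, and among cycling cells, with 10306 and 2194. In cluster 1 PLAUR was 2.75-fold and ANXA2 1.62-fold lower, 2 members where 19.7% of genes were. In the MECOM cluster only ANXA2 and S100A10 reached the minimum of 100 UMIs, and 0 members passed where 18.5% of genes were lower. The difference between clusters was not tested, since each has 1 library per group.

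**Figure D4:**
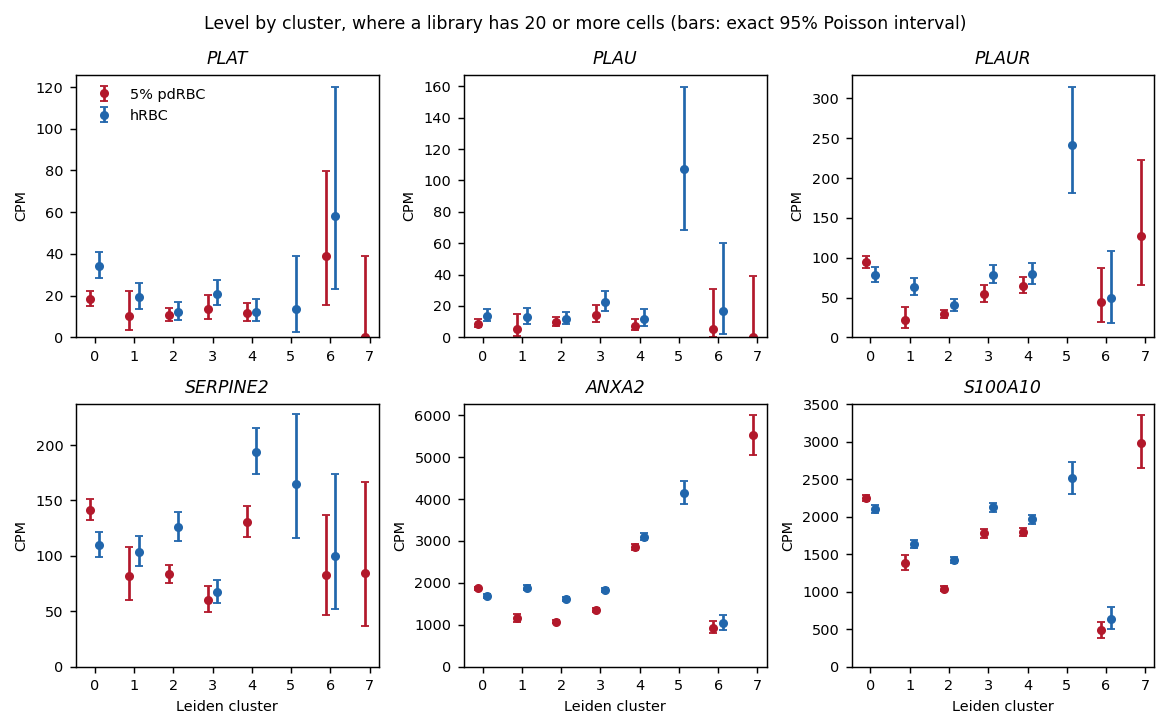
Level in CPM (vertical axis) of each gene by Leiden cluster (horizontal axis), with exact 95% Poisson intervals, for 5% pdRBC beside hRBC; a point is drawn where a library has 20 or more cells. In cluster 0 the 5% pdRBC points of PLAUR, SERPINE2, ANXA2 and S100A10 lie above those of hRBC, in cluster 2 they lie below, and PLAU stands at 107.2 CPM in cluster 5 of hRBC.

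Activator levels also varied between kinds of cell within a library. Cluster 5, led by the adhesion receptor SELE and the chemokines CCL2, CXCL1 and CXCL8, held 16 cells in 5% pdRBC, too few to compare, and 104 in hRBC. In those hRBC cells PLAU had 107.2 CPM (68.7 to 159.5), from 24 UMIs in 19 cells with at most 5 in one, against 11.7 to 22.6 CPM in hRBC clusters 0 to 4. PLAUR stood at 241.2 CPM (181.2 to 314.8) and ANXA2 at 4155 CPM (3892 to 4431) in the same cells, above the 40.4 to 79.6 CPM and 1618 to 3101 CPM of hRBC clusters 0 to 4. PLAT did not share this pattern, with 13.4 CPM from 3 UMIs. PLAT was listed highest in the MECOM cluster, at 38.8 CPM (15.6 to 79.9) in 5% pdRBC and 58.2 CPM (23.4 to 120) in hRBC, from 7 UMIs in each library, and next in cluster 0, and these neighbours did not differ beyond their intervals. Without cluster 5 the log2 fold of PLAU was -0.64 in place of -0.79.

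Over the 14 pairs of cluster and library with 20 or more cells, PLAUR and ANXA2 varied most alike among the members (Pearson's r of 0.804), followed by ANXA2 and S100A10 (0.785). PLAT had a negative r with both complex subunits, at -0.65 with ANXA2 and -0.62 with S100A10, but its extreme points rest on few counts. It was highest in cluster 6, from 7 UMIs in each library, where both subunits were lowest. In cluster 7 of 5% pdRBC, where both subunits were highest, PLAT had 0 UMIs. Values of r without these points were not computed. Among 7020 genes, those most like ANXA2 were RNH1 (0.986), PSMD8 and EIF6, those most like S100A10 were CCDC124 (0.974), KRT18 and ELOC, and those most like PLAUR were FH (0.907), WDR1 and BZW1. PLAT was most like ZRANB2 (0.960), PAFAH1B1 and RNF149, PLAU most like CCDC47 (0.892), DDX54 and NOLC1, and SERPINE2 most like CTSB (0.795), ESM1 and MVP. These points share libraries and depth and the values are descriptions.

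Of the 8 other lists of genes around fibrinolysis, no measured gene passed 1.5-fold in either direction. Among the 8 other inhibitors reported, 1 was measured: SERPINB2, an inhibitor of urokinase, had 12.8 CPM in 5% pdRBC and 10.4 CPM in hRBC, a ratio of 1.22 with an interval of 0.983 to 1.53. SERPINE3, under the minimum count, had 28 UMIs in 5% pdRBC and 2 in hRBC, a ratio of 9.43 (2.92 to 100.3). Plasminogen itself, PLG, had 0 UMIs in both libraries, which allows up to 0.186 CPM in 5% pdRBC and 0.225 CPM in hRBC from 3 counts. CTSB, a lysosomal protease that can activate pro-urokinase, was the 1 measured gene of the proteases that cut or activate plasminogen, at 613.1 CPM in 5% pdRBC and 634.1 CPM in hRBC, a ratio of 0.967 (0.939 to 0.996).

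Of 6 other plasminogen-binding proteins measured, 4 were lower with an interval leaving out 1, where 12.2% of measured genes were, and 0 were higher. The median log2 fold was -0.24, and the intervals of KRT8 at 0.890 (0.753 to 1.05) and PLGRKT at 0.990 (0.832 to 1.18) included 1. KRT18 was furthest, at 93.2 CPM in 5% pdRBC and 133.3 CPM in hRBC, a ratio of 0.699 (0.652 to 0.749), followed by HMGB1 at 0.808, ENO1 at 0.848 and GAPDH at 0.852, the last 2 being glycolytic enzymes. Of 14 measured relatives and partners of the annexin complex, 5 were lower and 1 higher. S100A6 had 3076 CPM in 5% pdRBC and 4154 CPM in hRBC, a ratio of 0.741 (0.732 to 0.750), ANXA6 a ratio of 0.855, and ANXA1, the exception, a ratio of 1.19 (1.14 to 1.24). AHNAK, a large scaffold that the complex binds, had an interval including 1.

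Of 5 measured receptors that clear activators and their inhibitor complexes, 2 were higher and 0 lower: IGF2R, which binds the urokinase receptor, at 1.30-fold (1.14 to 1.47), and MRC2 at 1.18-fold (1.01 to 1.37). LRP1, the main clearance receptor of activator and inhibitor complexes, was barely seen, with 16 UMIs in 5% pdRBC and 12 in hRBC. Of 8 measured partners of the urokinase receptor, 4 were lower and 1 higher, the integrin subunit ITGB3 at 1.38-fold (1.10 to 1.73) and, at the other end, EGFR at 0.852 (0.735 to 0.989). Downstream, 3 of 6 measured matrix proteases and inhibitors were higher and 1 lower, with the plasmin-activated MMP10 at 1.39-fold (1.23 to 1.58), MMP1 at 1.25-fold (1.22 to 1.28), TIMP2 at 1.09-fold and TIMP1 at 0.885. On the thrombin side 3 of 7 were higher and 2 lower. Tissue factor, F3, had 11.8 CPM in 5% pdRBC and 8.47 CPM in hRBC, 1.40-fold (1.10 to 1.78), with TFPI at 1.20-fold, VWF at 1.09-fold and TFPI2 at 0.907. With 15.4% of measured genes higher and 12.2% lower by the same rule, these lists are given as counts.

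**Figure D5:**
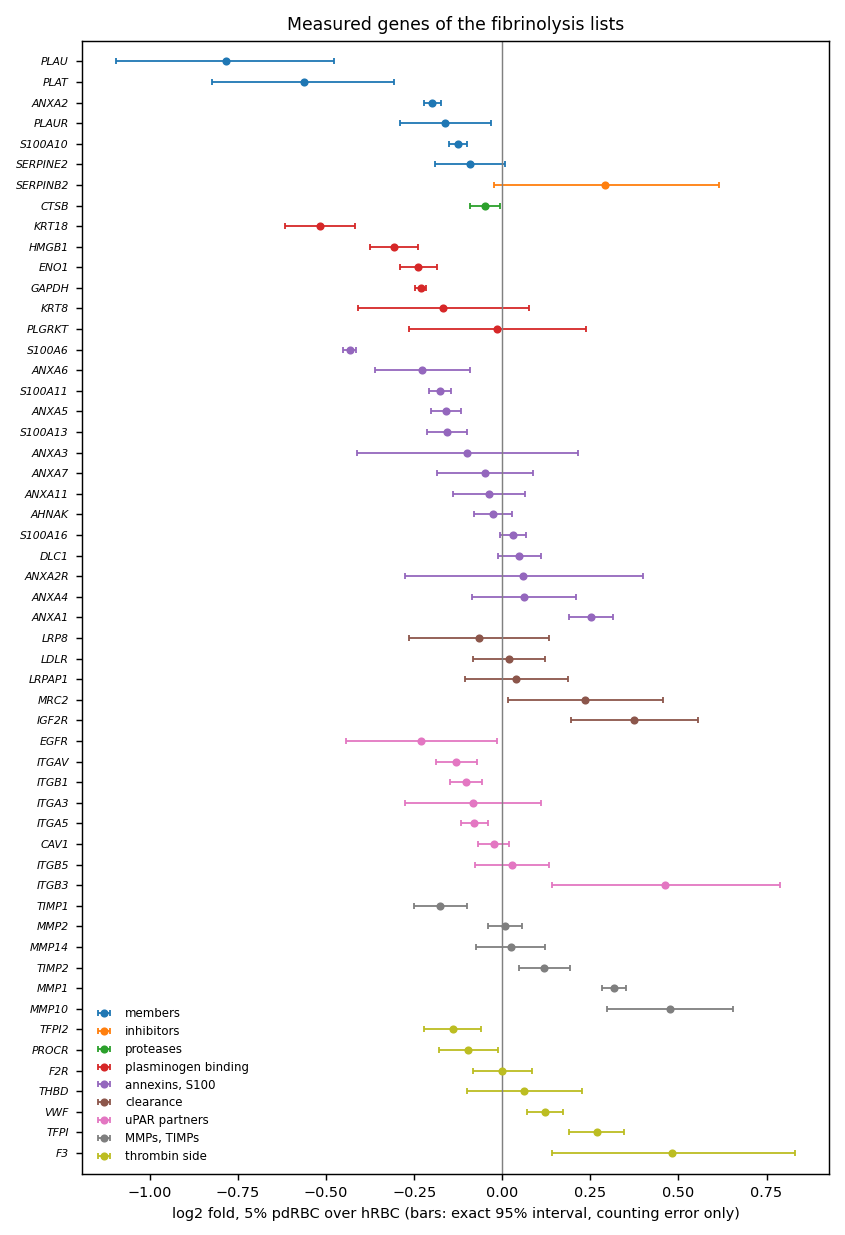
Log2 fold of 5% pdRBC over hRBC (horizontal axis) with exact 95% intervals for counting error, for the 6 members and the measured genes of 8 other lists around fibrinolysis, coloured by list. PLAU at -0.79 and PLAT at -0.56 lie furthest left, and the 4 other members lie between -0.20 and -0.09.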

How the data were processed

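Each deposited matrix gives raw UMI counts of genes in barcodes. The authors counted with Cell Ranger 7.0.0, as the file headers and notes say, and mapped to GRCh38, per the submitters' processing notes. No source used here states the annotation release or whether strand was used, so PLAU, whose opposite-strand neighbour C10orf55 had 3 UMIs in 5% pdRBC and 6 in hRBC, and ANXA2, which has 3 processed pseudogenes that are not among the counted genes, carry that uncertainty. Of 36601 genes, 34616 (94.6%) matched GENCODE release 29, which gave positions.

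Kept barcodes had at least 1000 UMIs and 500 genes, and no more than 20% of their UMIs were mitochondrial. No doublets were called or removed. UMIs were summed per library over all kept cells and divided by the total (CPM). UMIs count transcript ends, and levels of different genes were not ranked. A fold divides the 5% pdRBC level by the hRBC level after adding 0.5 UMIs to both sums, for genes with 100 or more UMIs over both libraries, with an exact Clopper-Pearson 95% interval. The fold calculation was tested on simulated data. Floors stand for 3 counts. Cells were clustered with Scanpy 1.11.5 and python-igraph 0.11.9 (2000 variable genes without the members, 30 components, 15 neighbours, Leiden resolution 0.5, seed 0), with no batch integration, since library and treatment coincide. Likeness is Pearson's r of log2(CPM + 5) for genes with 500 or more UMIs.

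The 6 members were all named, as were the 3 genes most like each. Of each other list, up to 4 genes with the largest fold in either direction and an interval leaving out 1 were named, with genes singled out for low counts; AHNAK was added after its value was seen. A listed gene is not reported here. The members and lists were chosen with earlier results of these data known. Alternatives covered the cell filter, depth, the weight of a cell, scaling, the gene minimum, thinning and clustering.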

Additional observations from a re-analysis of the deposited data

Results flagged for a closer look

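The difference between 5% pdRBC and hRBC ran one way in the EGR1 and FOSB cluster (cluster 0) and the other way in other clusters for 4 of the 6 genes, with counting intervals that left out 1 on both sides. These differences between clusters were not tested, since each cluster has 1 library per group. As 5% pdRBC over hRBC, PLAUR had a ratio of 1.21 in cluster 0, against 0.364 in cluster 1, 0.718 in cluster 2 and 0.694 in cluster 3. SERPINE2 had a ratio of 1.29 in cluster 0, against 0.663 in cluster 2 and 0.673 in cluster 4. ANXA2 had a ratio of 1.12 in cluster 0, against 0.616 in cluster 1, 0.664 in cluster 2, 0.735 in cluster 3 and 0.919 in cluster 4. S100A10 had a ratio of 1.07 in cluster 0, against 0.848 in cluster 1, 0.731 in cluster 2, 0.837 in cluster 3 and 0.912 in cluster 4. Median UMIs per cell were 10827 in 5% pdRBC and 11175 in hRBC in cluster 0, 6719 and 1520 in cluster 1, 8684 and 9965 in cluster 2, 10306 and 2194 in cluster 3, and 11005 and 4136 in cluster 4. Clusters 0 and 2, the closest in depth between the libraries of these 5, differ in direction for all 4 genes. The part of depth in these differences was not tested. With the members allowed among the variable genes, which let in 1 member, each of the 4 genes again had 1 compared cluster higher with an interval leaving out 1. SERPINE2 in the MGP and FABP4 cluster then had a ratio of 0.847 with an interval of 0.717 to 1.001, which includes 1. With finer clusters, in the cluster led by EGR1 and FOSB, the intervals of PLAUR at 1.17 (0.960 to 1.43) and S100A10 at 1.02 (0.983 to 1.06) included 1.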

How the results depend on the processing

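No paired analysis was possible because each group is 1 library and the labels give no replicate numbers. No member changed direction with a value past its threshold under any alternative run. Log2 folds over the alternatives lay between -0.87 and -0.32 for PLAT, -1.07 and -0.60 for PLAU, -0.60 and -0.09 for PLAUR, -0.17 and 0.00404 for SERPINE2, -0.39 and -0.11 for ANXA2, and -0.15 and -0.088 for S100A10. With each cell thinned to 2000 UMIs the log2 fold was -0.87 for PLAT, -0.60 for PLAUR and -0.39 for ANXA2. With every cell weighted equally it was -0.42 for PLAUR, -0.31 for ANXA2 and -0.15 for S100A10. That of ANXA2 was -0.16 in cells of 5000 or more UMIs, and -0.17 and -0.11 with hRBC levels weighted to the 5% pdRBC shares of clusters and of depth bins, which were alternatives chosen after seeing the data. That of S100A10 was -0.088 without cycling clusters. The members at least 1.5-fold lower numbered 2, PLAU and PLAT, under the stricter cell filter, in cells of 5000 or more UMIs and under both weightings, which have no interval, and 0 at a gene minimum of 500 UMIs, which PLAU does not reach. Over all genes, 171 higher and 120 lower became 341 and 268 with equal weights, which have no interval, 348 and 237 at a minimum of 20 UMIs, and 48 and 36 at 500 UMIs. The thinned share of cells with a UMI differed between 5% pdRBC and hRBC by -6.16 percentage points for ANXA2 and -4.49 for S100A10, and at 5000 UMIs per cell, where nearly every cell has one, by -0.65 and -1.13. With each cell thinned to 2000 UMIs the members at least 1.5-fold lower again numbered 1, which was PLAUR and not PLAU. Causes of these moves were not tested. With finer clusters 0 of 11 compared clusters were higher with an interval leaving out 1 for PLAUR and for S100A10, and 2 for SERPINE2. Of 174 alternative values, 142 stayed within their counting interval or count limit and 32 moved. Depth limits PLAT and PLAU, which rest on 509 and 364 UMIs.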

Other observations

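With finer clusters, a cluster led by the stress genes DDIT3, HERPUD1 and TRIB3 held 39 cells in 5% pdRBC and 23 in hRBC. SERPINE2 had 44 UMIs and 171.4 CPM (124.5 to 230.1) there in 5% pdRBC and 5 UMIs and 35.8 CPM (11.6 to 83.5) in hRBC, a ratio of 4.40 (1.90 to 15.5), chosen after its value was seen. In the barcodes left out by the cell filter, 34 in 5% pdRBC and 1303 in hRBC, ANXA2 had 1101 CPM (762 to 1538) and 1830 CPM (1747 to 1917), and S100A10 had 1068 CPM (735 to 1500) and 1774 CPM (1692 to 1860). PLAUR had 82.1 CPM (65.2 to 102) in those of hRBC. It had 0 UMIs in the 34 barcodes of 5% pdRBC, which allows up to 119.4 CPM and so does not set the libraries apart. Cluster 7, led by HBB and CRYAB and left unnamed, held 20 cells in 5% pdRBC and 17 in hRBC, and ANXA2 stood there at 5522 CPM (5058 to 6017) and 4101 CPM (3719 to 4512).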
